A study of Rattus norvegicus with 10 samples.

Results

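Transcripts of 8 ribosomal proteins were followed in rat tibia after a single session of mechanical loading. They are Rps29, Rps26, Rps15, Rps3a and Rps6 of the small ribosomal subunit and Rpl39, Rpl32 and Rpl29 of the large subunit. A gene was included when the accession of its spot belonged to a rat gene whose RefSeq symbol starts with Rpl or Rps and a number, or with Rplp, and the kinases of Rps6 were left out. The rule used no measured value, and 8 of 4803 genes on the arrays are described. Names could be given to 1177 of the 4803 genes, so ribosomal proteins among the other 3626 accessions were not analysed here. All 8 passed the filter on missing values.

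Ribosomal proteins assemble with ribosomal RNA into the small subunit, which decodes the message, and the large subunit, which joins the amino acids. Their messages are abundant in every cell, and a cell that grows or secretes much protein, such as an osteoblast that lays down collagen, needs many ribosomes. In mammals the translation of these messages is controlled largely through a run of pyrimidines, which begins with a C, at the very 5′ end of the message, and which responds to mTOR signalling. That control can change protein synthesis without a change in the amount of message, which is the only quantity an array measures.

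The rats were female Wistar rats of 12 weeks. In the LOAD group (n = 5) the right tibia was bent and squeezed between pads set apart, in 300 cycles at 2 Hz with the peak force set to 60 N. In the SHAM group (n = 5) the pads stood opposite each other, so that the right tibia was squeezed without bending. In both groups the untouched left tibia of the rat was the contralateral control. Bones were taken 6 hours after the session, the ends, periosteum and marrow were removed, and RNA of the shaft was hybridized, treated against control, on 10 arrays with a pair of dyes. The sources name osteocytes, osteoblasts, lining cells and vessel cells as the cells of this tissue. In such a mixture fewer cells of a type and less RNA per cell cannot be told apart.

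For SHAM 1 a label field reads LOAD, while its title, description and source name read SHAM, and it was counted as SHAM. On LOAD 4 and SHAM 4 the tibia numbers in the file headers are not neighbours as they are on the other 8 arrays, so whether the pair of bones came from the same rat is unknown there. Of the bone matrix genes Spp1, Ibsp and Sparc, 3 of 3 had signal in both channels of every array, as had 2 of 3 osteocyte genes (of Phex, Pdpn and Gja1), 2 of 3 leukocyte and marrow genes (of Cd53, Lyz2 and Il18) and 7 of 9 skeletal muscle genes. The 10 arrays had 32 to 166 of 4803 spots under the confidence minimum of 0.11 (median 45.5), with the most on LOAD 4, where 52.4% of spots had signal in both channels, against 61.0% to 81.6% elsewhere. Log2 ratios of pairs of arrays correlated over all genes with r between -0.658 and 0.495, and 8 of the 45 pairs lay under -0.3. Of the 21 pairs with the treated tibia in the same dye 2 lay under it, both with LOAD 2, which correlated with its 3 arrays of the same dye between -0.345 and -0.136 and with its 6 arrays of the opposite dye between -0.157 and 0.285. The labels and the file headers give the same dyes, so the directions were kept as labelled. The spots of the ribosomal proteins were bright and clean, with a signal probability of 1 in every channel and a confidence between 0.8 and 1.

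Rps29 is on chromosome 6, Rps26 and Rps15 on 7, Rps3a on 2, Rps6 on 5, Rpl39 on X, Rpl32 on 4 and Rpl29 on 8 (build GRCr8). RefSeq lists between 9 and 17 pseudogenes named after each of them. Such copies can be nearly identical in sequence, so a spot may also report transcripts of copies, if any are made, and the values are uncertain to that extent.

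Start sites could be read for 6 of the 8 genes from the RefSeq promoter table of build GRCr8, and are shown because the 5′ pyrimidine run is the feature that ribosomal protein messages are known to share. Each stretch holds 15 bases before the annotated start and 15 from the start on, 5′ to 3′, and the capitals mark the unbroken run of C and T that begins at the start. For Rps15 and Rpl29 the start in the promoter table lies inside the gene bounds of RefSeq, and for the other genes shown it lies at them. The stretches are chr7:1643390-1643419 (minus strand) for Rps26, chr7:10068101-10068130 (minus) for Rps15, chr2:173827028-173827057 (minus) for Rps3a, chr5:106420526-106420555 (minus) for Rps6, chrX:121195882-121195911 (minus) for Rpl39 and chr8:115947628-115947657 (plus) for Rpl29.
Rps26: gagagccgccgggtcCTCTTTCgagtcttg
Rps15: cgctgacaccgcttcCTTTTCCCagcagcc
Rps3a: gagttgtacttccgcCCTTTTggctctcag
Rpl39: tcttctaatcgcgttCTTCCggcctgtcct
Rpl29: gggcctttctctttcTCTTCCggtcccagg
Rps6: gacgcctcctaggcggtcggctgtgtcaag
A C followed by at least 4 pyrimidines stood exactly at the start in Rps26, Rps15, Rps3a and Rpl39, which is 4 of 6, against 2.63% of the 33469 promoters in the table. Rpl29 began with a T inside a longer pyrimidine tract, and Rps6 had no pyrimidine run at the annotated base. Within a window from 10 bases before to 15 after the start, such a run was found in 6 of 6, against 28.9% of all promoters. Only the strand of the gene was searched. Rps29 and Rpl32 were not looked up elsewhere.

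The first comparison was that of the loaded tibia with its own control. None of the 8 ribosomal proteins changed detectably when tested singly, and the 8 were not tested as a group. Their mean log2 ratios in LOAD lay between -0.15 for Rps29 and -0.003 for Rpl29, with a median of -0.04, against -0.01 over all 4707 genes tested. No gene passed a false discovery rate of 20% (0 of 4707, 0%; limma), and 157 genes (3.34%) had an unadjusted p under 0.05, none of them a ribosomal protein. All 8 means were below 0, as were 52.9% of all genes. No member was below 0 on every LOAD array (1.81% of genes were), and 4 of the 8, Rps29, Rps15, Rps6 and Rpl39, were below 0 on at least 4 of 5, against 16% of genes. Without LOAD 4, 5 of the 8 means were below 0, with a median of -0.01, and with each array left out in turn the median lay between that value and -0.05, without LOAD 2. With the dyes of LOAD 2 exchanged, 4 of the 8 were below 0, also with a median of -0.01.

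Among proteins of the small subunit, Rps29, a small zinc-binding protein, had the lowest mean. Its log2 ratios in LOAD 1 to 5 were -0.05, -0.40, 0.01, -0.27 and -0.02, and in SHAM 1 to 5 they were -0.10, 0.26, -0.11, 0.09 and 0.04. LOAD 2 and LOAD 4 were low, the other LOAD arrays lay near 0, and the groups overlapped. The mean was -0.15 ± 0.18 in LOAD and 0.04 ± 0.15 in SHAM (SD, n = 5 each). The LOAD value did not pass the test (adjusted p = 0.9998 in limma). Its 95% interval, -0.33 to 0.04, corresponds to a loaded tibia with between 0.796 and 1.03 times the message of its control.

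Rps26 lies where the message leaves the small subunit, and in humans it is, like RPS29, a gene of Diamond-Blackfan anemia. Rps26 had log2 ratios of -0.02, -0.25, 0.09, -0.40 and 0.16 in LOAD 1 to 5, and of 0.03, 0.28, -0.0008, 0.05 and -0.07 in SHAM 1 to 5. It was lowest on LOAD 4 and highest on SHAM 2, and the groups overlapped. The mean ratio was -0.09 ± 0.23 in LOAD and 0.06 ± 0.13 in SHAM (SD, n = 5 each).

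Rps15, a protein of the head of the small subunit, behaved differently from Rps29 and Rps26 on LOAD 2. Its log2 ratios were -0.04, 0.36, -0.02, -0.14 and -0.36 in LOAD 1 to 5, and -0.01, 0.16, 0.04, 0.03 and -0.12 in SHAM 1 to 5. The LOAD arrays thus spanned the whole range of the SHAM arrays and exceeded it on both sides, with SDs of 0.26 in LOAD and 0.10 in SHAM.

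After loess the most even members were Rps3a and Rps6. Rps6 is the substrate of the S6 kinases below mTOR, and its log2 ratios stayed between -0.15 and 0.03 in LOAD and between -0.09 and 0.09 in SHAM. Those of Rps3a, which sits on the platform of the small subunit, lay between -0.23 and 0.05 in LOAD and between -0.09 and 0.02 in SHAM. The SDs over the 10 arrays were 0.06 for Rps6 and 0.08 for Rps3a, against a median of 0.23 over all genes.

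Of the large subunit, Rpl39, a short basic protein of the tunnel through which the new chain leaves, had log2 ratios of -0.02, -0.06, 0.02, -0.12 and -0.45 in LOAD 1 to 5. In SHAM 1 to 5 they were -0.21, 0.02, 0.22, 0.08 and -0.01. LOAD 5 was the low array of this gene, whereas Rps29 was near 0 there, and the groups overlapped. The mean of Rpl39 was -0.12 ± 0.19 in LOAD and 0.02 ± 0.16 in SHAM (SD, n = 5 each), and the LOAD value did not pass the test (adjusted p = 0.9998 in limma).

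Rpl29 is the member with a known tie to bone: mice that lack it are small and have fragile bones. Its log2 ratios were -0.06, 0.22, 0.11, -0.20 and -0.09 in LOAD 1 to 5, and -0.05, 0.40, 0.06, 0.05 and -0.07 in SHAM 1 to 5. SHAM 2 was high and the LOAD values lay on both sides of 0, so that the LOAD mean was -0.003 ± 0.17, against 0.08 ± 0.19 in SHAM (SD, n = 5 each).

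Rpl32, often used as a reference transcript, had log2 ratios of -0.02, -0.08, 0.05, -0.28 and 0.32 in LOAD 1 to 5, and of -0.09, 0.13, 0.09, 0.09 and -0.03 in SHAM 1 to 5. LOAD 4 was its lowest array and LOAD 5 its highest, so that the LOAD values reached beyond the SHAM values on both sides. The means were -0.005 ± 0.22 in LOAD and 0.04 ± 0.09 in SHAM (SD, n = 5 each).

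**Figure D1:**
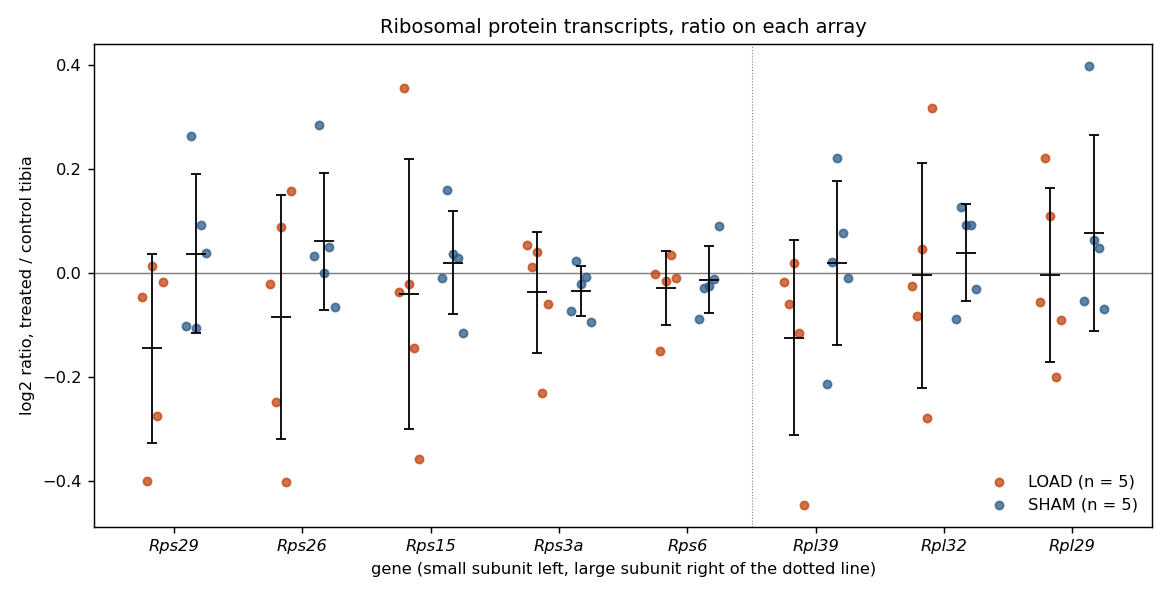
Log2 ratio of treated to control tibia on each array (vertical axis) for the 8 genes (horizontal axis), LOAD left of SHAM in each pair. Points are arrays, and black bars give the mean ± SD of 5 arrays. LOAD and SHAM overlap in every gene, and after loess Rps6 and Rps3a have the smallest spread.

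The squeezed tibia differed as little from its own control. In SHAM 6 of the 8 means were above 0 and 2, Rps3a and Rps6, below, and they lay between -0.04 for Rps3a and 0.08 for Rpl29. The median was 0.03, against 0.003 over all genes, of which 48.7% were below 0. No gene passed 20% (0 of 4707, 0%; limma), the unadjusted p was under 0.05 in 32 (0.68%), none of them a ribosomal protein. Rps3a and Rps6 were below 0 on 4 of 5 SHAM arrays, as were 13.4% of genes on at least 4, and no member was on every array (1.63% of genes). Without SHAM 2, 5 of the 8 means were below 0, with a median of -0.006, and without SHAM 1 the median was 0.07.

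LOAD was then set against SHAM, which asks for the net effect of bending. All 8 differences, LOAD minus SHAM, were below 0, as were 52.2% of all genes, and their median was -0.07, against -0.01 over all genes. They ran from -0.18 for Rps29 (standard error 0.12, adjusted p = 0.9986 in limma) to -0.002 for Rps3a (standard error 0.09). None passed the test, 0 of 4707 genes did (0%), and 70 genes (1.49%) had an unadjusted p under 0.05. LOAD and SHAM arrays did not overlap in 7 of 4472 genes (0.157%), none of them a ribosomal protein. Without both arrays numbered 4, 6 of the 8 differences were below 0, with a median of -0.04. With each array left out in turn the median lay between -0.112, without LOAD 2, and -0.023, without SHAM 2.

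The intervals show which changes the arrays would still allow, given the loess normalization. With each array only centred on its median, Rps29 in LOAD was -0.31 (standard error 0.24). The median difference of the 8 was then -0.255, so the intervals below do not cover what loess removed. Over the 8 genes the 95% intervals of the LOAD value spanned -0.33 to 0.19, or 0.796 to 1.14 times the control. Those of the difference spanned -0.44, for Rps29, to 0.22, for Rps15, or 0.736 to 1.17 times SHAM. The standard errors of the difference had a median of 0.12 for the ribosomal proteins and of 0.15 for all genes.

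**Figure D2:**
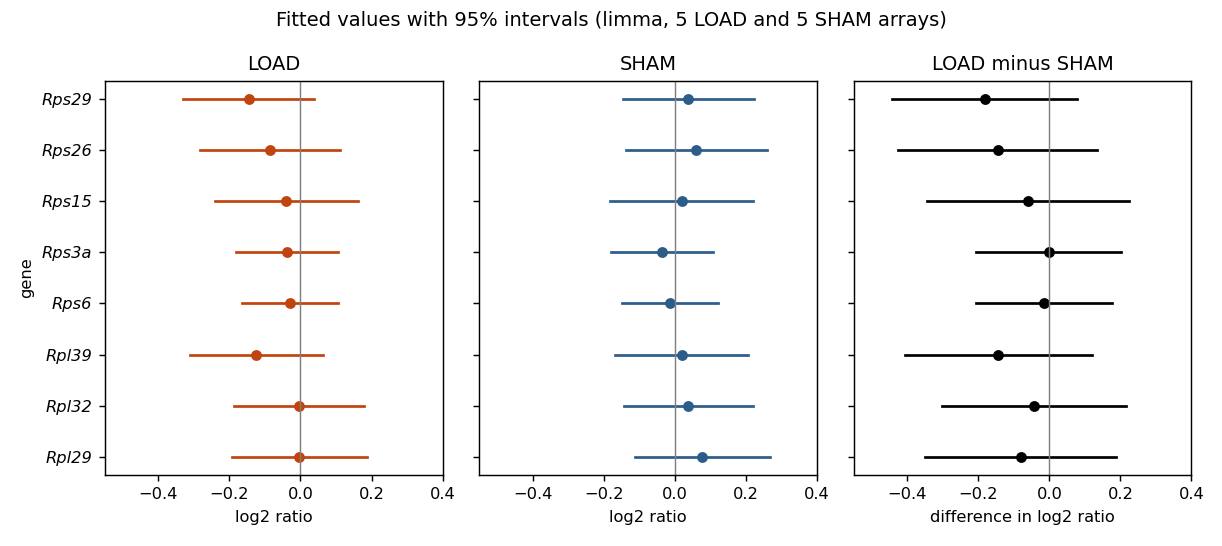
Fitted log2 ratio in LOAD, in SHAM and their difference, LOAD minus SHAM (horizontal axes), for each of the 8 genes (vertical axis), with 95% intervals from limma. Every interval includes 0, and the points of the difference run from -0.18 for Rps29 to -0.002 for Rps3a.

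The arrays fall into 4 sets by a number in the file headers, which was read here as the scan session. Each set holds LOAD and SHAM arrays. The median difference of the 8 genes, LOAD minus SHAM, was -0.04 in the session with 2 arrays of each group, and 0.03, -0.24 and -0.04 in those with 1 array of each. In these sessions 5, 3, 7 and 5 of the 8 differences were below 0. For Rps29 the differences were -0.30, 0.12, -0.37 and -0.05. The sign thus did not hold in every session, and the lowest values belong to the session of LOAD 4 and SHAM 4.

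Arrays of a group differed more than the group medians did. On LOAD 4, 7 of the 8 genes had a log2 ratio below 0, with a median of -0.22, and 4 of them had their lowest value of all 10 arrays there. On SHAM 2, 7 of 8 were above 0, with a median of 0.14, and 3 had their highest value there. On the other 8 arrays the median lay between -0.08, on SHAM 1, and 0.05, on SHAM 4. LOAD 2 and LOAD 5 had wide ranges, with -0.40 for Rps29 to 0.36 for Rps15 on LOAD 2, and -0.45 for Rpl39 to 0.32 for Rpl32 on LOAD 5.

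The size of these array-wide shifts rested on the normalization. Loess removes from each array a trend of the ratio with the brightness of the spot, and the ribosomal protein spots lay at percentiles of brightness between 85.9, for Rpl39, and 99.5, for Rps6, with a median of 98.5. With each array only centred on its median, the median ratio of the 8 genes was 0.08, -0.84, 0.09, -0.70 and 0.40 on LOAD 1 to 5, and -0.26, 0.70, -0.12, 0.39 and -0.34 on SHAM 1 to 5. Arrays of both groups thus lay on both sides of 0. The control tibia was in the dye Cy3 on LOAD 2, LOAD 5, SHAM 2 and SHAM 4, all above 0 except LOAD 2. On the other arrays the treated tibia was in Cy3, and all lay below 0 except LOAD 1 and LOAD 3. The part of the dyes in these values was not tested. At the median of the 8 loess took away 0.10, -0.79, 0.05, -0.51 and 0.39 on LOAD 1 to 5, and -0.18, 0.56, -0.14, 0.37 and -0.30 on SHAM 1 to 5. With centring alone the group medians were -0.19 in LOAD and 0.09 in SHAM, all 8 means were below 0 in LOAD and above 0 in SHAM, and again no gene of the 8 passed the test. Whether a joint shift of bright transcripts is part of this trend was not tested.

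**Figure D3:**
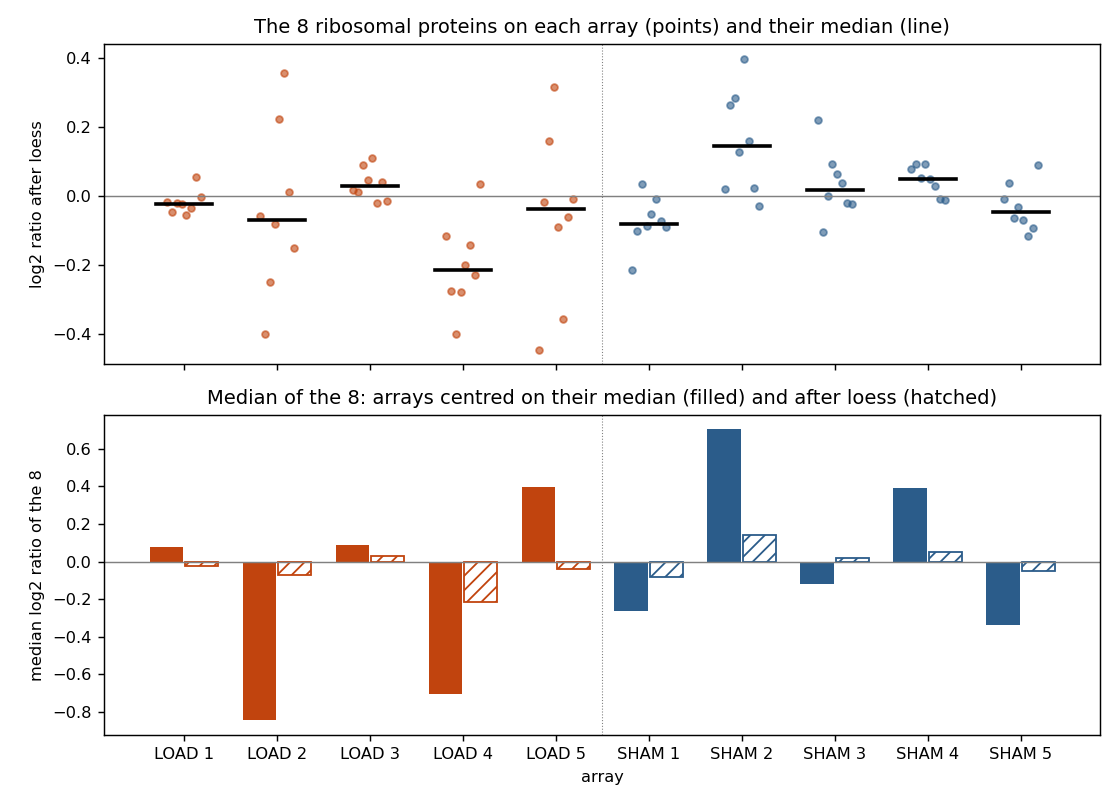
Upper panel: log2 ratio after loess (vertical axis) of the 8 genes on each array (horizontal axis), with their median as a line. Lower panel: the median of the 8 with arrays centred on their median (filled) and after loess (hatched); it reaches -0.84 on LOAD 2 and 0.70 on SHAM 2 before loess, and -0.07 and 0.14 after it.

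Skeletal muscle genes moved on some of the same arrays. Their median log2 ratio was -1.06 on LOAD 4 and 0.57 on SHAM 2, but -1.09 on LOAD 3, where the median of the ribosomal proteins was 0.03. Across the 10 arrays the mean of the 8 genes and the median of the muscle list correlated with r = 0.633, as a description of arrays that share tissue, hybridization and scan. The log2 of the summed level of 8 muscle genes, those measured on all arrays, was 13.0 to 13.3 in loaded tibiae and 13.1 to 14.1 in their controls, and 13.2 to 13.6 in sham-loaded tibiae and 13.0 to 13.4 in their controls. Of the 9 muscle genes on the arrays (Ckm, Pgam2, Eno3, Myl11, Capn3, Car3, Tnni2, Cacng1 and Scn4a) none was without signal on all arrays. Their part in the ribosomal protein values was not tested.

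The 8 genes did not move as a single block. Over the 28 pairs, Pearson's r of the log2 ratios across the 10 arrays had a median of 0.334, against -0.001 over all pairs of genes, and 28.6% of pairs exceeded 0.5, against 14.2% of all pairs. With the group means removed the median was 0.31. Without LOAD 4 and SHAM 2 together it was -0.046, a choice made after their values were seen. Arrays share a rat, a hybridization and a scan, and the points of a pair of genes share all of these.

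Some pairs stayed together without those arrays. Rps29 and Rps26 had r = 0.847 over the 10 arrays and 0.761 without LOAD 4 and SHAM 2, and Rps26 and Rpl32 had 0.82 and 0.701. Rpl29 and Rps15 had 0.748 and 0.842. Between Rps29, Rps26 and Rpl32 on the one side and Rpl29 and Rps15 on the other, values ran from -0.261 to 0.474 over the 10 arrays. Rps26 and Rps15 had -0.108 over the 10 arrays and -0.824 without LOAD 4 and SHAM 2. Rps29, Rps26 and Rps15 were at -0.40, -0.25 and 0.36 on LOAD 2, and Rps26 and Rps15 at 0.16 and -0.36 on LOAD 5. On the arrays other than LOAD 2, LOAD 4, LOAD 5 and SHAM 2, Rps26 lay between -0.07 and 0.09 and Rps15 between -0.12 and 0.04. The value of -0.824 between Rps26 and Rps15 thus rests largely on LOAD 2 and LOAD 5. Values of r for single pairs without LOAD 2 or LOAD 5 are not given. The lowest value over 10 arrays was -0.662, between Rps15 and Rps6. Of these pairs, Rps26 with Rpl32 and Rps15 with Rpl29 cross the subunits, and Rps29 with Rps26 does not.

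**Figure D4:**
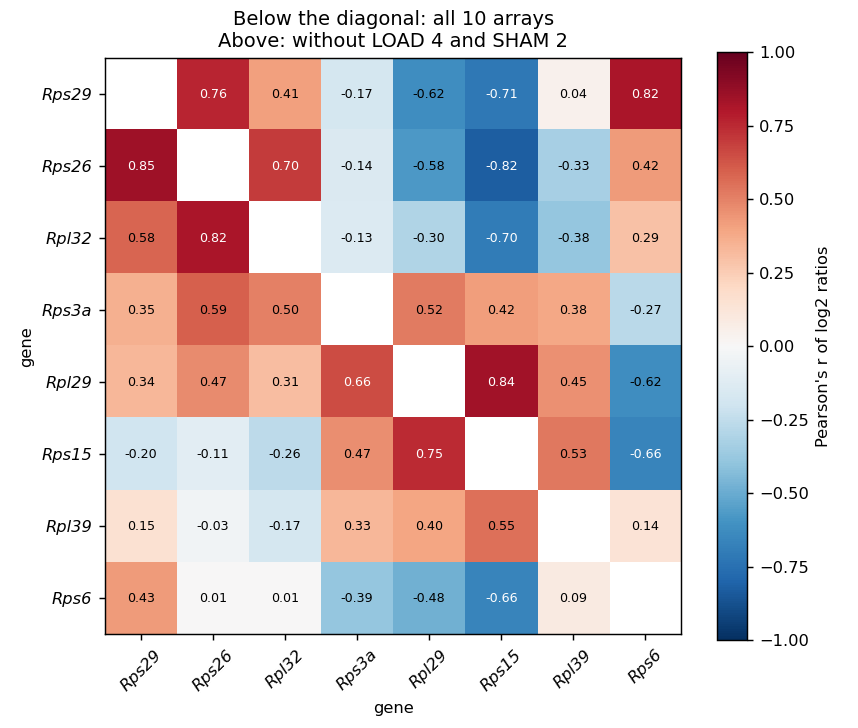
Pearson's r of log2 ratios for each pair of the 8 genes (both axes), below the diagonal over all 10 arrays and above it without LOAD 4 and SHAM 2. Rps29, Rps26 and Rpl32 have positive values with each other on both sides of it. Rps15 with these genes lies between -0.261 and -0.108 below the diagonal, and reaches -0.824, with Rps26, above it. LOAD 4 and SHAM 2 were chosen after their values were seen.

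Normalization set the size of this joint movement too. With median centring the median r of the 28 pairs was 0.922 while that of all genes was -0.006, and without any normalization it was 0.974, against 0.842 for all genes. Levels averaged over both tibiae of an array gave 0.496.

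Levels in single tibiae came from the channels taken one by one, on a normalized log2 scale, and can be compared between tibiae for a gene but not between genes. For Rps29 the levels were 13.83, 14.02, 13.83, 14.16 and 14.10 in loaded tibiae 1 to 5, and 13.88, 14.42, 13.82, 14.43 and 14.12 in their controls. They were 13.65, 13.99, 13.65, 14.07 and 13.74 in sham-loaded tibiae 1 to 5, and 13.76, 13.73, 13.76, 13.97 and 13.70 in their controls. The control tibiae of the LOAD group were thus the highest, and only SHAM 4 among the SHAM controls reached into their range. The loaded tibiae were next, and the squeezed tibiae and their controls were lowest, at means of 13.82 ± 0.20 and 13.78 ± 0.11 (SD, n = 5 each). Neighbours in this order differed by less than their spread.

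This difference between untouched bones was the only one of the 8 genes with an unadjusted p under 0.05 in any comparison. Controls of LOAD exceeded controls of SHAM by 0.35 in Rps29 (standard error 0.15, 95% interval 0.03 to 0.67, 1.02 to 1.59 times; adjusted p = 0.843 in limma). Among 4472 genes 234 (5.23%) had such a p, 90 (2.01%) of them higher in LOAD controls, and 0 (0%) were called at 20%. Without any single array the difference stayed between 0.28 and 0.43. Rps29 in loaded minus sham-loaded tibiae differed by 0.17 (standard error 0.15, adjusted p = 0.960 in limma), a comparison in which an unadjusted p under 0.05 was reached by 206 of 4472 genes (4.61%) and the 20% threshold by 0 (0%).

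Rps6, described here after its values were seen, had the next lowest p. Its means were 14.31 ± 0.22 in loaded tibiae and 14.34 ± 0.21 in their controls, and 14.08 ± 0.10 in squeezed tibiae and 14.09 ± 0.10 in their controls (SD, n = 5 each). Both tibiae of a LOAD rat were thus alike and, on average, above both tibiae of a SHAM rat, although both tibiae of LOAD 1 and the loaded tibiae of LOAD 2 and LOAD 3 lay within the SHAM range. The differences between groups were 0.25 between controls (standard error 0.12, adjusted p = 0.843) and 0.23 between treated tibiae (standard error 0.12, adjusted p = 0.922; limma). Treated and control levels of Rps6 correlated across the 10 arrays with r = 0.95, the highest of the 8 genes. The others ran from 0.386 for Rpl39 to 0.912 for Rps3a. The median was 0.698 over the 8 genes and 0.776 over all genes. The bones of a pair share the array and spot as well as the rat, and these cannot be told apart.

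Over all 8 genes, 5 were higher and 3 lower in LOAD controls than in SHAM controls (48.5% of genes were lower), and apart from Rps29 and Rps6 they lay between -0.08 for Rpl29 and 0.08 for Rps26. Controls of LOAD and SHAM overlapped in every one of the 8, and did not overlap in 0.984% of genes. In treated tibiae 3 of the 8 were higher and 5 lower in LOAD (51.4% of genes were lower), and the lowest was Rpl29 at -0.16 (standard error 0.16). Rps26, Rpl32, Rps15 and Rps3a had their lowest level, averaged over both tibiae, on LOAD 1. For Rps26 this level was 12.47, which was 0.31 under the next lowest array. Between arrays the SD of the average had a median of 0.18 over the 8 genes and of 0.31 over all genes.

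**Figure D5:**
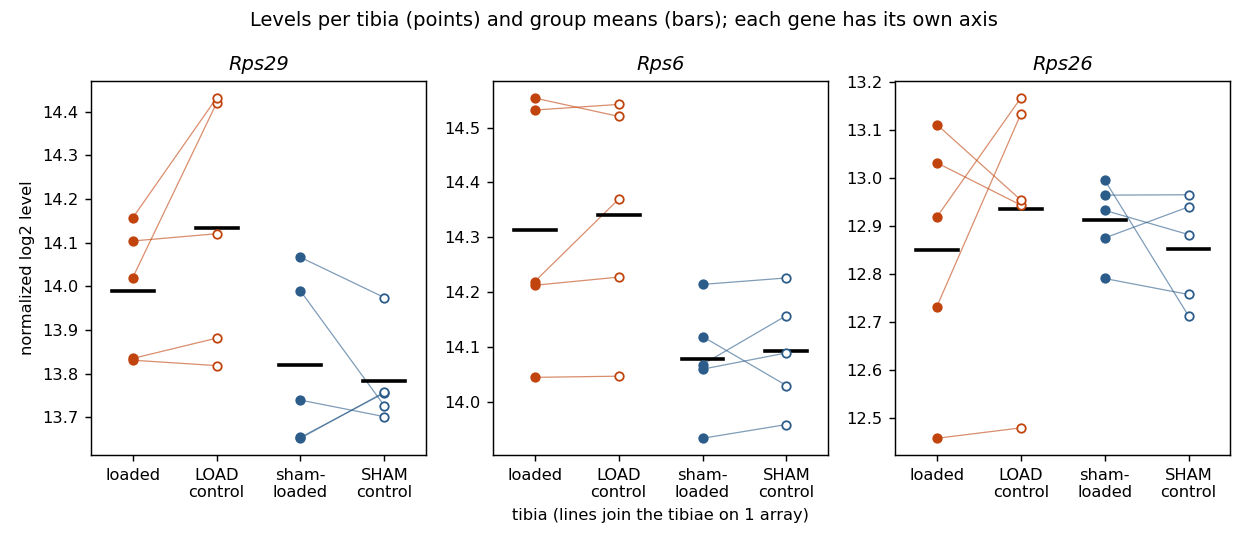
Normalized log2 level (vertical axes, one scale per gene) of Rps29, Rps6 and Rps26 in loaded tibiae, controls of LOAD, squeezed (sham-loaded) tibiae and controls of SHAM, with lines joining the tibiae of an array and bars at group means. The Rps29 means are 13.99, 14.13, 13.82 and 13.78 in this order, and both tibiae of LOAD 1 are the lowest of all in Rps26.

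Ribosome supply and use are also governed by translation factors and growth regulators, of which 12 were on the arrays. In LOAD 5 of the 12 were above 0 and 7 below, with a median of -0.007, and in LOAD minus SHAM again 5 and 7, with a median of -0.02, and none passed 20%. The lowest p in LOAD belonged to Eif2ak2, the double-stranded RNA kinase that halts initiation (0.12, standard error 0.10), to Eef1a2, the elongation factor form of muscle and neurons (-0.10, standard error 0.10), and to Npm1, a nucleolar chaperone of ribosome assembly (0.20, standard error 0.20). Eif2ak2 had signal in only 7 of 20 channels. In LOAD minus SHAM Npm1 came first (0.38, standard error 0.28, adjusted p = 0.9986 in limma), followed by Eef1a2 (-0.11) and Rheb, the activator of mTOR (0.08). In SHAM the first were Eef2k, the kinase that slows elongation (0.08), Npm1 (-0.18) and Tsc2, a brake on Rheb (-0.06). Mtor itself was at -0.02 in LOAD and -0.004 in SHAM. Ratios of these genes correlated with those of the ribosomal proteins with a median r of 0.003 across the 10 arrays.

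The other group set beside the ribosomal proteins was that of cytochrome oxidase and ATP synthase, with 7 genes. All 7 were below 0 in LOAD (52.9% of all genes were), with a median of -0.07. The lowest values were those of Cox8b (-0.17, standard error 0.10) and Cox6a2 (-0.16, standard error 0.13), which are subunit forms of muscle. In SHAM 5 of 7 were below 0, with a median of -0.03, and in LOAD minus SHAM 6 of 7 were below 0, with a median of -0.03, and none passed 20%. The median r among these 7 was 0.547 and that with the ribosomal proteins 0.349.

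Of the 1067 named genes that are no ribosomal proteins and have a value on every array, 5 were most like the mean ratio of the 8. These were Tpsb2 (r = 0.852), a mast cell tryptase, Bet1l (0.851), which acts in vesicle transport, Tnni1 (0.825), the slow skeletal troponin I, Adarb1 (0.82), an RNA-editing enzyme, and Glra1 (0.818), a glycine receptor subunit that had signal in both channels on 0 of the 10 arrays. Among all 1067, 16.6% exceeded 0.5. Without LOAD 4 and SHAM 2 the values were 0.715, 0.409, 0.146, 0.477 and 0.354 in the same order, so that of these 5 genes Tpsb2 kept the highest likeness and Tnni1 lost most of its own.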

How the data were processed

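RNA of treated and control tibiae was measured on 10 spotted oligonucleotide arrays, and groups and dyes were taken from the labels. The authors quantified the spots with BlueFuse, and the deposited files give an intensity per channel, not normalized, with duplicate spots already combined. They also give, as deposited, a confidence and a signal probability per channel as a fraction. The deposited matrix of log2 ratios equals the log2 ratios of these intensities without normalization. It was used as an alternative.

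Spots under a confidence of 0.11 were set to missing, log2 ratios were normalized by loess (span 0.3, 4 iterations), and 4707 genes with at most 1 missing array entered the fit. In limma 3.58.1 (R 4.3.3) each gene had a LOAD and a SHAM mean, with Benjamini-Hochberg adjustment over all genes and a threshold of 20%. Single channels were compared after Aquantile normalization over 4472 genes with a value on every array. Intervals are at 95%. The number of arrays limits the precision. The fits were tested on simulated data. Ratios rest on 5 rats a group.

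The genes and lists were chosen with earlier results of these data known. Not every ribosomal protein on the arrays is reported here. Per-array values were to be printed for Rps29, Rpl39 and the members with the lowest p of the difference, up to 6 genes, likeness was to be given for 5 named genes, and the translation list by its counts and the 3 genes of lowest p in each comparison. Alternatives changed normalization, background offset, filters, dye, scan and replicate terms, the prior and the arrays included.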

Additional observations from a re-analysis of the deposited data

Results flagged for a closer look

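In groups of 5 arrays, 50 sets of values were searched for a sample far from the other 4, and 5 held one. Chance gives about 1 in 20 for independent sets. These sets share arrays and intensities, so the count cannot be compared with that rate. Rpl39 had a log2 ratio of -0.446 on LOAD 5, with the nearest other LOAD array at -0.116. Rpl29 had a ratio of 0.398 on SHAM 2, with the nearest at 0.063. Rps6 had a ratio of -0.15 on LOAD 2, with the nearest at -0.015. Among levels, Rps29 was at 13.974 in the control tibia of SHAM 4, with the nearest at 13.757, and Rpl39 was at 10.598 in the squeezed tibia of SHAM 4, with the nearest at 10.362. The causes were not tested.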

How the results depend on the processing

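No ribosomal protein passed 20% under any alternative run. Without normalization, or in the deposited matrix, 9 genes passed in LOAD and 2 in LOAD minus SHAM. All genes then shifted too, by a median of -0.229 in LOAD and -0.421 in SHAM, and the medians of the 8 were -0.396 in LOAD, -0.339 in SHAM, -0.26 between controls and -0.301 between treated tibiae. With median centring they were -0.194 in LOAD and -0.255 in LOAD minus SHAM. The joint r was then 0.922, and 0.974 without normalization. Between controls 3 genes passed with the scan session as a block, and 0 to 8 with an array left out, the most without LOAD replicate 3. Many values of the 8 genes lie close to 0. None passed the test, and over the alternatives the sign turned in 57 single-gene values and stayed in 611. In LOAD, with a dye term Rpl32 was 0.012 and Rpl29 0.015, with an offset of 50 Rpl32 was 0.0003, and with the scan session as a block it was 0.004. With the dyes of LOAD 2 exchanged Rps29 was 0.015, Rps26 0.014, Rpl32 0.028 and Rps6 0.031, and Rps6 was 0.045 in LOAD minus SHAM. Rps15 kept its sign and moved farther from 0, to -0.183 in LOAD (adjusted p = 0.853 in limma), the only value of the 8 genes with an unadjusted p under 0.05 under that setting, and to -0.2025 in LOAD minus SHAM. Without both arrays numbered 4, Rpl32 was 0.064, Rpl29 0.046 and Rps3a 0.011 in LOAD, and in LOAD minus SHAM Rpl32 was 0.039 and Rps3a 0.053. In SHAM Rps15 was -0.012 with the scan session as a block, and with median centring Rps3a was 0.033 and Rps6 0.064. Without normalization SHAM values turned in Rpl39 (-0.397), Rps29 (-0.319), Rps26 (-0.316), Rpl32 (-0.33), Rpl29 (-0.313) and Rps15 (-0.348), and in the deposited matrix in the same 6 (-0.397, -0.319, -0.316, -0.33, -0.313 and -0.348). Rps3a was then 0.001 in LOAD minus SHAM, 0.0008 in the matrix, Rps6 was -0.062 between controls and -0.086 between treated tibiae, and Rps29 was -0.149 between treated tibiae. The causes were not tested.

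With an array left out in turn, the ranges that crossed 0 in LOAD were -0.085 to 0.064 for Rpl32, -0.060 to 0.046 for Rpl29, -0.14 to 0.039 for Rps15, -0.060 to 0.011 for Rps3a and -0.044 to 0.0016 for Rps6. In SHAM they were -0.032 to 0.077 for Rpl39, -0.019 to 0.073 for Rps29, -0.003 to 0.114 for Rpl29, -0.015 to 0.054 for Rps15 and -0.039 to 0.0057 for Rps6. In LOAD minus SHAM they were -0.123 to 0.026 for Rpl32, -0.159 to 0.019 for Rps15, -0.025 to 0.046 for Rps3a and -0.034 to 0.015 for Rps6. The joint r stayed between 0.152 and 0.433.

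LOAD and SHAM arrays of the same replicate number share the header number that was read here as the scan session. Their deviations from the group means correlated between -0.408 and 0.067. Some of these pairs have the same dyes and some opposite dyes, so the values cannot show whether the replicate numbers pair the arrays. With the replicate number as a block, 0 genes passed in LOAD minus SHAM, and the median of the 8 was -0.07. The joint r without LOAD 4 and SHAM 2 (-0.046), without both arrays numbered 4 (0.151) and with group means removed were added after seeing the data. The number of arrays limits the precision.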
